A study of Caenorhabditis elegans with 7 samples.

Results

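Cuticlins and the other proteins with a zona pellucida domain are secreted or membrane-bound components of the apical extracellular matrix, and in Caenorhabditis elegans many of them are made by the epidermis and built into the cuticle. The zona pellucida domain lets such proteins assemble into fibrils and sheets outside the cell. In this worm, RNA-dependent RNA polymerases copy many messenger RNAs into short antisense RNAs, and a small RNA that reads across an exon-exon boundary was copied from a spliced transcript. All genes of the deposited splice junction table with a cuticlin name or a known zona pellucida domain name were taken, which gave 7 of the table's 3717 genes: cut-1, cutl-7, cutl-10, cutl-14, cutl-15, cutl-26 and noah-2. They hold 9 of the 7678 introns and 18 of the 14533 lines with values. A list of 41 names of this family was looked up, and these 7 are the ones with a line in the table.

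The small RNA came from embryos freed from adults with bleach and was cut from a gel, and all strains share the N2 background. The mutants were rnp-2(mg582), with 2 libraries, and mog-2(ok1221), rnp-3(ok1424) and rnp-2(tm4058), with 1 library each, and wildtype N2 had 2 libraries. All 3 mutated genes belong to the core splicing machinery: the protein of rnp-2 resembles a subunit of the U1 particle, which marks 5′ splice sites, and those of mog-2 and rnp-3 resemble subunits of the U2 particle, which binds the branch point. The kind of lesion in each allele is not given in the sources used here. The titles name experiment 1, with rnp-2(mg582), mog-2(ok1221), rnp-3(ok1424) and wildtype, and experiment 2, with rnp-2(mg582), rnp-2(tm4058) and wildtype. The labels do not say whether cultures were separate, and every p-value below measures the spread between these libraries, which can be technical.

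The libraries held 9901228 to 142819946 reads, but spliced reads at the listed junctions made up between 0.0517% of a library in rnp-2(tm4058) and 1.88% in rnp-3(ok1424). Levels are therefore given as scaled CPM, which is CPM (spliced reads relative to the library total) after scaling with trimmed mean of M-values (TMM) factors between 0.0846 and 2.97, and they are relative to the bulk of listed junctions. On this scale 1 read is worth most in rnp-2(tm4058), where 3 reads correspond to 0.248 scaled CPM, and least in wildtype 2, where they correspond to 0.0395. The mutated gene rnp-3 had 0 spliced reads in rnp-3(ok1424), which allows up to 0.102 scaled CPM, against 5 and 8 reads in wildtype 1 and 2. Those wildtype reads are 0.102 and 0.105 scaled CPM, so the 0 reads do not set rnp-3(ok1424) apart from wildtype. The gene rnp-2 had 12, 10 and 1 reads in rnp-2(mg582) 1, rnp-2(mg582) 2 and rnp-2(tm4058), against 11 and 15 in wildtype 1 and 2. In scaled CPM these are 0.387, 0.301 and 0.0828, against 0.224 and 0.198 in wildtype. The gene mog-2 was not analysed here. Of the markers looked up, all 6 of the germ line list were in the table, with summed levels of 6.05 to 8.03 scaled CPM in the mutant libraries and 6.45 to 7.93 in wildtype. Of 6 epidermis markers only ajm-1, a protein of epithelial junctions, was listed, at 0 to 0.204 scaled CPM in the mutant libraries and 0.0132 to 0.122 in wildtype. None of the 8 intestine and yolk markers was listed. The 4 listed neuron genes summed to 15.0 to 36.8 scaled CPM in the mutant libraries and 28.2 to 36.5 in wildtype, and the 2 listed body muscle genes to 0.783 to 1.73 in the mutant libraries and 1.27 to 2.65 in wildtype. In bulk small RNA, fewer cells of a type and less RNA per cell cannot be told apart, and a marker here shows small RNA against that gene, not its messenger RNA. The 3 listed sperm genes summed to 1.16 to 2.93 scaled CPM in the mutant libraries and 2.91 to 3.57 in wildtype, and their part in the results below was not tested.

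All members are protein-coding genes, and all 9 introns lie between coding exons of the WBcel235 annotation. The introns of cutl-15, cut-1, cutl-26 and noah-2 sit at chromosome II 8942966 to 8943424 for cutl-15 (intron 6 of 6, minus strand), II 11269242 to 11269553 for cut-1 (intron 1 of 3, plus strand), IV 698944 to 699220 for cutl-26 (intron 7 of 7, minus strand) and IV 14096058 to 14096144 for noah-2 (intron 4 of 4, plus strand). Last introns made up 4 of the 9 (44.4%), against 24.8% of the 6772 listed introns that match an annotated one. The donor and acceptor sites show where the exons joined in the small RNA meet. Each donor below has 5 exon bases and 10 intron bases, each acceptor 10 intron bases and 5 exon bases, both 5′ to 3′ as the table gives them, and capitals mark the first and last intron dinucleotide.
cutl-15 donor: cagtgGTgagtactt
cutl-15 acceptor: tcattttcAGgcctt
cut-1 donor: cacagGTattttttt
cut-1 acceptor: caaattccAGtgaac
cutl-26 donor: tatagGTgagtgggg
cutl-26 acceptor: acatttcaAGtttca
noah-2 donor: accagGTaaaaatta
noah-2 acceptor: taattttcAGcatgt

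All of them start with GT and end with AG, as 98.5% and 99.0% of the listed introns do. Set against the commonest base at each of 9 donor positions, cutl-26 matched at 7 positions and cutl-15, cut-1 and noah-2 at 6, where the median listed intron also matches 6. At 8 acceptor positions cutl-15 and noah-2 matched 7, and cut-1 and cutl-26 matched 5, a count that 4.39% of listed introns fall below. The cut-1 intron overlaps or lies close beside a noncoding RNA gene on the other strand, C47G2.20. In the same way the noah-2 intron overlaps or lies close beside the piRNA gene 21ur-4885 on the same strand. The use of strand in counting is not given in the sources used here, so unspliced reads of these genes could not be told apart. Neither intron had an unspliced read, and the levels below are of spliced reads, which cross joined exons.

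**Figure D1:**
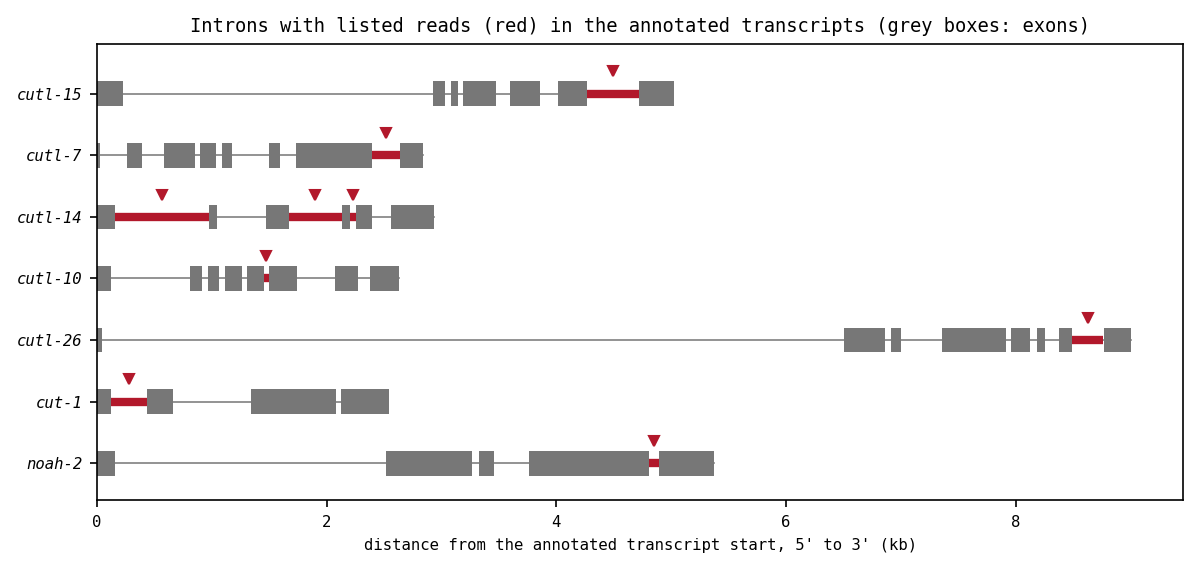
Annotated transcripts of the 7 genes, drawn in kilobases from the transcript start, with exons as grey boxes and the introns that have listed small RNA reads in red with a triangle. The listed intron is the last one in cutl-15, cutl-7, cutl-26 and noah-2, the first in cut-1 and an inner one in cutl-10, and cutl-14 has 3.

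The family had 464 spliced reads in all, of which cutl-15 held 207, noah-2 106, cutl-14 46, cut-1 35, cutl-7 31, cutl-26 23 and cutl-10 16. Summed over the 7 genes, the level was 2.13 and 2.29 scaled CPM in rnp-2(mg582), 2.48 in rnp-2(tm4058), 3.46 in mog-2(ok1221) and 2.24 in rnp-3(ok1424), against 0.775 and 0.923 in wildtype. On this scale every mutant sum was above both wildtype sums, and cutl-15 is the largest term in each mutant library. In CPM as deposited the order differs: the sums were 4.53 and 0.812 in rnp-2(mg582) 1 and 2, 0.210 in rnp-2(tm4058), 9.03 in mog-2(ok1221) and 6.67 in rnp-3(ok1424), against 1.82 and 0.792 in wildtype 1 and 2. By that measure rnp-2(tm4058) was below both wildtype libraries, and rnp-2(mg582) 2 was close to the wildtype library of its experiment. A line is in the table only where it reached about 0.505 CPM in some library, and each member met that in experiment 1. The libraries that met it were rnp-2(mg582) 1 alone for cutl-7, rnp-3(ok1424) alone for cutl-14, wildtype 1 alone for cutl-10, and mog-2(ok1221) alone for cut-1 and cutl-26. The gene noah-2 met it in all 4 libraries of experiment 1, and cutl-15 in the 3 mutant libraries of that experiment but not in wildtype. For the genes listed through a single library that library is also the one with the most CPM as deposited, so that its high value was a condition for being listed.

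The member that passed in most genotypes was cutl-15, a cuticlin-like gene whose own function is not described in the sources used here. It is listed through the libraries of mog-2(ok1221), at 6.81 CPM as deposited, rnp-3(ok1424), at 2.52, and rnp-2(mg582) 1, at 1.92, and no other, against 0.144 and 0.124 in wildtype 1 and 2, so a high mutant value was a condition for its being tested. It had 28 and 36 spliced reads in rnp-2(mg582), 15 in rnp-2(tm4058), 89 in mog-2(ok1221) and 25 in rnp-3(ok1424), against 3 and 11 in wildtype. In scaled CPM these are 0.904 and 1.08 in rnp-2(mg582), 1.24 in rnp-2(tm4058), 2.61 in mog-2(ok1221) and 0.849 in rnp-3(ok1424), against 0.0612 and 0.145 in wildtype. Each of the 5 mutant libraries was above both wildtype libraries, as holds for 5.35% of all tested genes. The mog-2(ok1221) library was highest, and the other mutant libraries lay close together.

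Pooled reads scaled in the same way were 8.90-fold higher in rnp-2(mg582) than in wildtype (exact 95% interval 4.94 to 17.2), 11.1-fold in rnp-2(tm4058) (4.99 to 24.8), 23.3-fold in mog-2(ok1221) (13.2 to 44.3) and 7.57-fold in rnp-3(ok1424) (3.79 to 15.8). These intervals cover counting error only. In limma, a linear model fitted over all 3551 genes that passed the filter on low counts, the change on the log2(scaled CPM + 0.5) scale was 1.31 ± 0.22 (SE) in rnp-2(mg582), with an adjusted p of 0.0105. It was 1.53 ± 0.27 in rnp-2(tm4058) with an adjusted p of 0.0163, and 2.37 ± 0.27 in mog-2(ok1221) with an adjusted p of 0.0195. In rnp-3(ok1424) the limma change was 1.17 ± 0.27 and missed the threshold with an adjusted p of 0.164, while with experiment as a block it passed with an adjusted p of 0.00441. The added 0.5 makes these values smaller than the pooled ratios. Genotypes with 1 library have no replicate check of their own and are assumed to vary like the others. With the block, a gene's own spread is only how far its change in rnp-2(mg582) over wildtype differs between the experiments. A blocked p-value of rnp-3(ok1424) thus holds no spread of that genotype, and neither does the unblocked one.

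The cutl-15 calls depend on the scaling in every genotype that had one. With library size alone the adjusted p from limma was 1.0 in rnp-2(mg582), 0.968 in rnp-2(tm4058) and 1.0 in mog-2(ok1221), and the direction turned in rnp-2(tm4058) only. In CPM as deposited, within each experiment, cutl-15 was 13.3-fold higher in rnp-2(mg582) 1, 47.3-fold in mog-2(ok1221) and 17.5-fold in rnp-3(ok1424), each over wildtype 1, and 3.09-fold higher in rnp-2(mg582) 2 over wildtype 2. In rnp-2(tm4058) it was 0.844 times wildtype 2, from 0.105 CPM in rnp-2(tm4058) and 0.124 CPM in wildtype 2. With library size alone the median change of all genes in rnp-2(tm4058) was -0.96 on the log2 scale and that of cutl-15 was -0.07. The added 0.5 limits how far a gene with so few reads can fall. Even cutl-10, with 0 reads in rnp-2(tm4058), changed by only -0.57 there. The gap to the median of all genes thus does not place cutl-15 relative to other genes. Relative to the library total, cutl-15 was not above its own level in wildtype 2. Under that scaling no gene of the table passed in limma in rnp-2(mg582) or rnp-2(tm4058), where 93 and 56 genes in that order had an unadjusted p under 0.05. Leaving out 1 library at a time also ended the cutl-15 call in rnp-2(mg582), with adjusted p from limma of 0.0650 and 0.0616 without rnp-2(mg582) 1 and 2, and 0.179 and 0.0625 without wildtype 1 and 2.

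**Figure D2:**
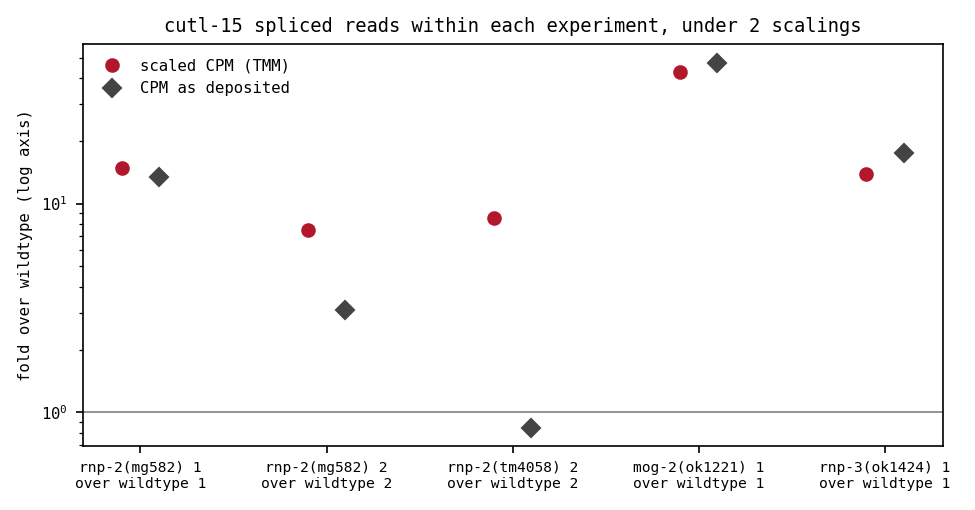
Fold of cutl-15 in each mutant library over the wildtype library of its experiment, on a log axis, from scaled CPM (red circles) and from CPM as deposited (grey diamonds). All red points lie above 1, and the grey point of rnp-2(tm4058), at 0.844, lies below it.

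The gene cutl-7, also cuticlin-like, is listed at its last intron (7 of 7, minus strand), chromosome I 8954756 to 8955002. It had 15 and 12 spliced reads in rnp-2(mg582), 2 in rnp-2(tm4058), 0 in mog-2(ok1221) and 1 in rnp-3(ok1424), against 1 and 0 in wildtype. Its level was 0.484 and 0.362 scaled CPM in rnp-2(mg582), 0.166 in rnp-2(tm4058), 0 in mog-2(ok1221) and 0.0340 in rnp-3(ok1424), against 0.0204 and 0 in wildtype. Both rnp-2(mg582) libraries stood above all other libraries. The limma change in rnp-2(mg582) was 0.85 ± 0.13 with an adjusted p of 0.00694. The pooled ratio was 52.6 with an exact 95% interval of 8.66 to 2152, which is wide because wildtype gave 1 read. The gene is listed through rnp-2(mg582) 1 alone, at 1.03 CPM as deposited. Its high value there was a condition for every test of cutl-7, those against other mutants included.

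These 2 of 7 members passed in rnp-2(mg582), both higher, where 8.36% of all tested genes passed and 3.8% passed as higher. Each is listed only through mutant libraries, rnp-2(mg582) 1 among them, so a high mutant value was a condition for being tested. Both rnp-2(mg582) libraries lay above both wildtype libraries for 3 members (cutl-7, cutl-15 and cutl-26), as they did for 23.7% of all tested genes, and below both for cutl-10 and cutl-14, as for 27.4%. The call of cutl-7 ended without wildtype 1 (adjusted p from limma 0.111) and without wildtype 2 (0.0613), and without rnp-2(mg582) 1 the gene no longer passed the filter. In rnp-2(tm4058) the limma change of cutl-7 was 0.38, from 2 reads, with an adjusted p of 0.171. Set against other mutants in the same fit, cutl-7 was lower by limma in mog-2(ok1221) than in rnp-2(mg582) by -0.88 (adjusted p 0.0208, with 5.86% of genes passing) and lower in rnp-3(ok1424) than in rnp-2(mg582) by -0.79 (adjusted p 0.0253, with 7.41% passing). Between rnp-2(tm4058) and rnp-2(mg582) its difference was -0.47, with a 95% interval of -0.83 to -0.10 and an adjusted p from limma of 0.390. No gene passed between those alleles in limma, and 360 had an unadjusted p under 0.05.

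The gene cutl-14 had its high value in rnp-3(ok1424). Its 3 listed introns, on the plus strand of chromosome I, are numbers 1, 3 and 4 of 5, at 10628896 to 10629714, 10630411 to 10630874 and 10630947 to 10630994. It had 2 and 1 spliced reads in rnp-2(mg582), 1 in rnp-2(tm4058), 3 in mog-2(ok1221) and 24 in rnp-3(ok1424), against 5 and 10 in wildtype. In scaled CPM these are 0.0646 and 0.0301 in rnp-2(mg582), 0.0828 in rnp-2(tm4058), 0.0879 in mog-2(ok1221) and 0.815 in rnp-3(ok1424), against 0.102 and 0.132 in wildtype. On this scale the rnp-3(ok1424) library was above all others, and the other mutant libraries were below both wildtype libraries. By genotype, 27.4% of tested genes were below both in rnp-2(mg582), 47.5% in rnp-2(tm4058) and 39.6% in mog-2(ok1221). In rnp-3(ok1424) 35.0% were above both. The low values are of 1 to 3 reads, not above the floor of 3 reads. In CPM as deposited rnp-2(mg582) 1 (0.137) and mog-2(ok1221) (0.230) were above wildtype 2 (0.113). The 24 reads came from all 3 listed introns, with 5, 14 and 5 reads in 5′ to 3′ order, against 1, 3 and 1 in wildtype 1 and 1, 8 and 1 in wildtype 2.

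The pooled ratio of cutl-14 in rnp-3(ok1424) over wildtype was 6.79, with an exact 95% interval of 3.42 to 13.9. The limma change was 1.09 ± 0.16 and the adjusted p was 0.0567, and with experiment as a block the adjusted p was 0.00120. No member passed in rnp-3(ok1424) in the unblocked limma fit, where 0.197% of genes did. An unadjusted p under 0.05 was reached by 434 genes (12.2%), cutl-14 and cutl-15 among them. With the block 4.25% of genes passed, and the 2 members that did were cutl-14 and cutl-15. By the same unblocked limma fit cutl-14 was higher in rnp-3(ok1424) than in rnp-2(mg582) by 1.27 (adjusted p 0.00574), and lower in rnp-2(tm4058) than in rnp-3(ok1424) by -1.17 (adjusted p 0.0151, with 5.91% of genes passing). In mog-2(ok1221) against rnp-3(ok1424) the limma difference was -1.16 and the adjusted p was 0.0550, where 0.253% of genes passed. Each of these values rests on a single rnp-3(ok1424) library, the one through which cutl-14 entered the table.

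The gene cutl-10 ran the other way. It is listed at intron 5 of 7 on the minus strand, chromosome I 11295710 to 11295756. It had 0 and 0 spliced reads in rnp-2(mg582), 0 in rnp-2(tm4058), 1 in mog-2(ok1221) and 1 in rnp-3(ok1424), against 11 and 3 in wildtype. In scaled CPM the mutant libraries lay between 0 and 0.0340, against 0.224 and 0.0395 in wildtype 1 and 2. All 5 mutant libraries were below both wildtype libraries, as holds for 8.19% of all tested genes, but wildtype 2 was close to them. In rnp-2(mg582) 0 reads stood against 14 in wildtype, and the exact 95% interval of the scaled ratio ran from 0 to 0.587. Of the 14 reads 11 came from wildtype 1, the library through which the gene is listed, and the 3 reads of wildtype 2 alone allow no fold. Over all mutant libraries 2 reads stood against 14 in wildtype, a scaled ratio of 0.128 with an exact 95% interval of 0.0141 to 0.556. In limma the adjusted p was 0.229 in rnp-2(mg582) and 0.532 over all mutants, so neither passed.

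The gene cutl-26 is listed through mog-2(ok1221) alone, at 0.689 CPM as deposited. Its high value in that library was thus a condition for its being tested there. It had 5 and 4 spliced reads in rnp-2(mg582), 1 in rnp-2(tm4058), 9 in mog-2(ok1221) and 0 in rnp-3(ok1424), against 0 and 4 in wildtype. In scaled CPM these are 0.161 and 0.121 in rnp-2(mg582), 0.0828 in rnp-2(tm4058), 0.264 in mog-2(ok1221) and 0 in rnp-3(ok1424), against 0 and 0.0527 in wildtype. On this scale all mutant libraries other than rnp-3(ok1424) were above both wildtype libraries. Taken by genotype, that holds for 23.7% of tested genes in rnp-2(mg582), 36.3% in rnp-2(tm4058) and 39.2% in mog-2(ok1221). The rnp-2(tm4058) value is 1 read, below the floor of 3 reads. In CPM as deposited rnp-2(mg582) 2 (0.0428) and rnp-2(tm4058) (0.0070) were below wildtype 2 (0.0453). The largest limma change was 0.54 ± 0.14 in mog-2(ok1221), with an adjusted p of 0.0933 and, with experiment as a block, 0.0290. In mog-2(ok1221) 1 of the 7 members, cutl-15, thus passed without the block, where 2.17% of genes did, and 2 passed with it, where 15.1% did. In rnp-2(tm4058) cutl-15 alone passed, against 7.97% of genes.

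The gene cut-1 encodes the cuticlin after which the family is named. It had 4 and 3 spliced reads in rnp-2(mg582), 4 in rnp-2(tm4058), 9 in mog-2(ok1221) and 4 in rnp-3(ok1424), against 6 and 5 in wildtype. In scaled CPM it was at 0.129 and 0.0904 in rnp-2(mg582), 0.331 in rnp-2(tm4058), 0.264 in mog-2(ok1221) and 0.136 in rnp-3(ok1424), against 0.122 and 0.0659 in wildtype. The rnp-2(mg582) and wildtype libraries overlapped, and no limma comparison with wildtype passed. The smallest adjusted p was 0.110 in rnp-2(tm4058), where 4 reads gave a change of 0.49 and where library size alone turned the change to -0.33.

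The gene noah-2, named for its likeness to Drosophila nompA, is the best covered member after cutl-15. It had 12 and 20 spliced reads in rnp-2(mg582), 7 in rnp-2(tm4058), 7 in mog-2(ok1221) and 11 in rnp-3(ok1424), against 12 and 37 in wildtype. In scaled CPM it was at 0.387 and 0.603 in rnp-2(mg582), 0.579 in rnp-2(tm4058), 0.205 in mog-2(ok1221) and 0.374 in rnp-3(ok1424), against 0.245 and 0.488 in wildtype. Mutant and wildtype libraries overlapped. The limma change in rnp-2(mg582) was 0.21 with a 95% interval of -0.31 to 0.72, and over all mutants it was 0.10 with an interval of -0.41 to 0.60, which leaves room for changes in both directions.

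**Figure D3:**
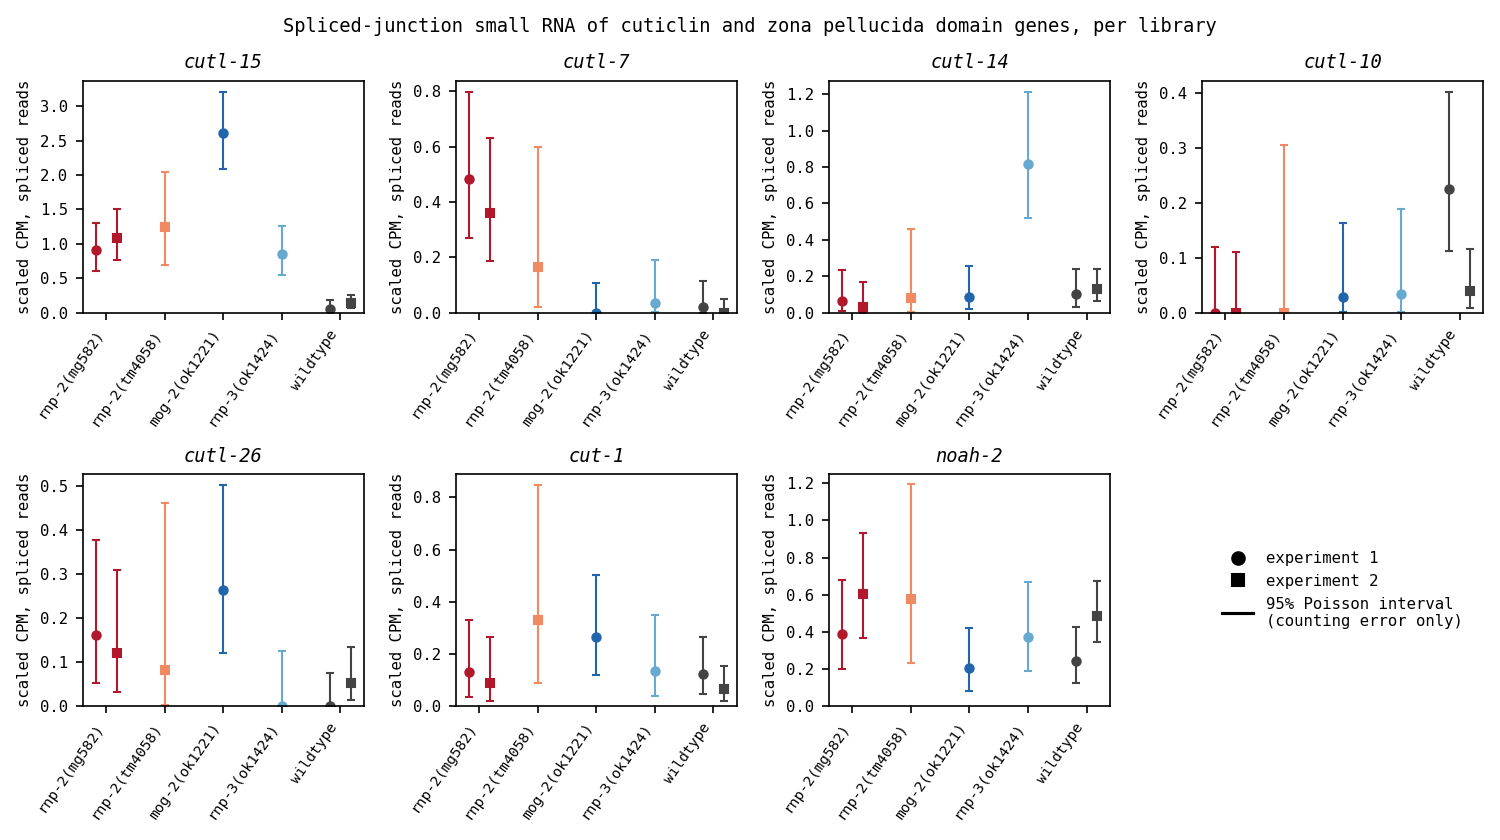
Spliced reads of each gene in scaled CPM, 1 point per library, with exact Poisson 95% intervals that cover counting error only; circles are experiment 1 and squares experiment 2. cutl-15 lies between 0.849 and 2.61 in the mutant libraries and at 0.0612 and 0.145 in wildtype, cutl-7 is high in rnp-2(mg582) and cutl-14 in rnp-3(ok1424).

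With all 5 mutant libraries set against wildtype, no gene passed in limma (0 of 3551) or in edgeR's quasi-likelihood test, 328 genes had an unadjusted p under 0.05 in limma, and DESeq2 called 53 genes. The percentage of genes called by limma is therefore 0, and by the unadjusted threshold it is 9.24%, with cutl-10 and cutl-15 among them. The cutl-15 level averaged 1.34 ± 0.727 scaled CPM in the mutant libraries (SD, n = 5) and 0.103 ± 0.0592 in wildtype (SD, n = 2). Its limma change was 1.54 ± 0.32 with an adjusted p of 0.163, and DESeq2 gave an adjusted p of 0.000128. It is the only one of the 7 members with every mutant library above both wildtype libraries. Without rnp-3(ok1424) cutl-15 passed in limma with an adjusted p of 0.0417, as 1 of 86 genes among 3466 tested. Its adjusted p was 0.896 without wildtype 1 and 0.895 without wildtype 2, and it lay between 0.105 and 0.341 without each other mutant library.

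In rnp-2(mg582) 5 of the 7 members had a positive and 2 a negative log2 change, with a median of 0.21 on the log2 scale, beside a median of -0.02 for all tested genes. In rnp-2(tm4058) the split was also 5 and 2, with a median of 0.33 beside -0.08, and in rnp-3(ok1424) it was 5 and 2 with a median of 0.07 beside -0.03. In mog-2(ok1221) 3 members had a positive and 4 a negative value, with a median of -0.03 beside -0.01. These comparisons share the wildtype libraries. With library size alone the members' median became -0.03 in rnp-2(mg582), beside -0.24 for all genes, and -0.33 in rnp-2(tm4058), beside -0.96. It became 0.12 in mog-2(ok1221), beside 0.44, and 0.45 in rnp-3(ok1424), beside 0.54. The added 0.5 makes changes of genes with few reads smaller, and the members have few reads. The gaps under this scaling thus do not place the members relative to all genes.

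**Figure D4:**
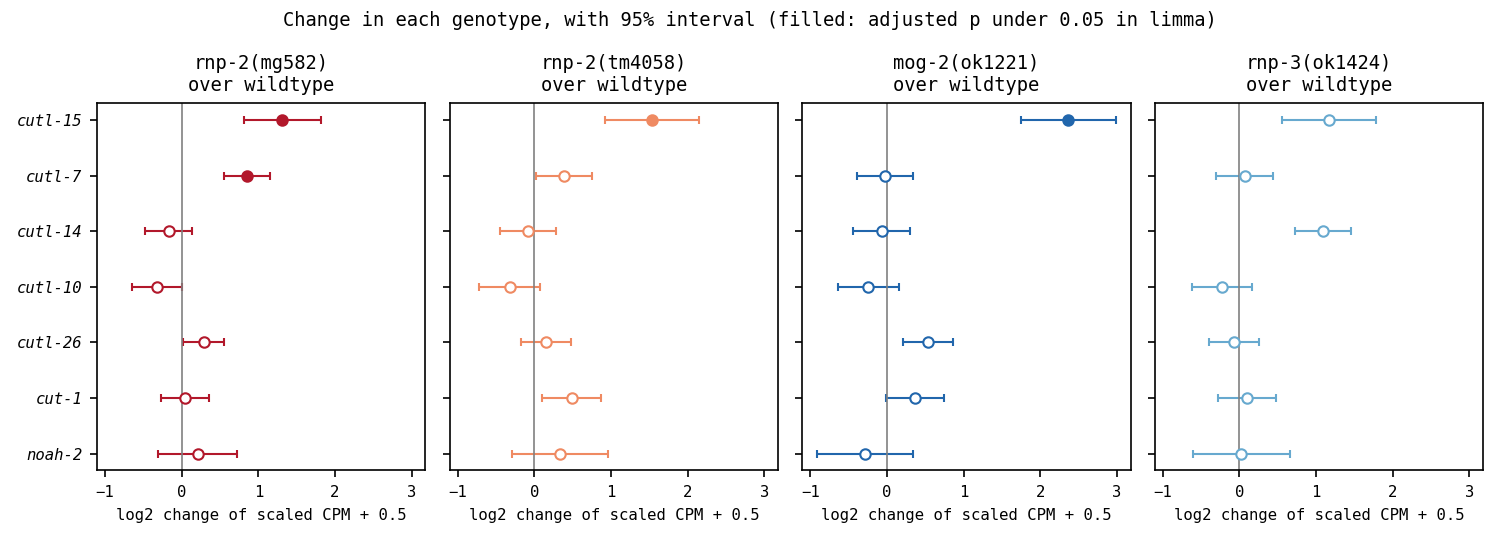
Change of each gene in each mutant genotype over wildtype on the log2(scaled CPM + 0.5) scale, with 95% intervals from limma; filled points have an adjusted p under 0.05. cutl-15 is to the right of 0 in every genotype, at 1.31 in rnp-2(mg582), 1.53 in rnp-2(tm4058), 2.37 in mog-2(ok1221) and 1.17 in rnp-3(ok1424).

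Differences in cutl-15 between the mutant genotypes did not pass without the block. The limma difference between mog-2(ok1221) and rnp-2(mg582) was 1.06 with an adjusted p of 0.0596, and with experiment as a block 0.00281. Between mog-2(ok1221) and rnp-3(ok1424) it was 1.20 with an adjusted p of 0.123, and with the block 0.00537. The difference between the alleles rnp-2(tm4058) and rnp-2(mg582) was 0.22, with a 95% interval of -0.39 to 0.84. In scaled CPM the order of cutl-15 levels was mog-2(ok1221), rnp-2(tm4058), rnp-2(mg582), rnp-3(ok1424) and wildtype, and no pair of neighbours in that order passed in the unblocked fit. In CPM as deposited rnp-2(tm4058) had the lowest cutl-15 value of the 7 libraries, at 0.105, below both wildtype libraries.

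Almost no unspliced reads were found at the members' introns. The 9 introns had 2 unspliced among 466 reads, which is 0.429% (exact 95% interval 0.0520 to 1.54%), against 7.59% over all listed junctions. These percentages are of pooled reads, so junctions with many reads weigh most, and the interval covers counting error only. Unspliced reads occurred at 2 of 9 member introns and at 51.3% of all junctions. That share depends on depth, and members were less covered, with 464 spliced reads at 9 junctions against 1643159 at 7282. No comparison at matched depth was made. They were 1 read of cutl-15 in mog-2(ok1221) and 1 read of cutl-14, at its intron 4, in wildtype 2. By junction, cutl-7 and cutl-15 passed in rnp-2(mg582) among 7 member introns that met the filter, beside 5.73% of 6877 junctions, and with experiment as a block cutl-10 joined them with an adjusted p of 0.0285, beside 19.7%. When unspliced reads were set against spliced ones in rnp-2(mg582) over wildtype, limma called no member and 0.0145% of junctions. Unadjusted p under 0.05 was reached by cutl-7 and cutl-10, beside 3.13% of junctions, and edgeR's interaction test called no member and 0.116% of junctions. With 0 or 1 unspliced reads per intron, such a ratio moves almost only with the spliced reads, and a change in unspliced reads was not detectable at this depth.

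Of the related genes looked up, 1 of 8 apical matrix genes without the domain was listed, the leucine-rich repeat gene egg-6. It was at 4.91 and 4.34 scaled CPM in rnp-2(mg582) and at 3.49 and 3.44 in wildtype, and did not pass in any genotype. Of 19 cuticle enzyme and molting genes 5 were listed, and 1 passed in rnp-2(mg582), where 8.36% of all tested genes did. This was dpy-31, an astacin protease that trims collagens. It fell to 0.614 and 0.211 scaled CPM in rnp-2(mg582), against 2.84 and 1.54 in wildtype, a limma change of -1.55 with an adjusted p of 0.0276, and in rnp-2(tm4058) it fell by 1.97 with an adjusted p of 0.0307. In mog-2(ok1221) and rnp-3(ok1424) its value was positive, 0.93 and 0.74 in that order, and did not pass. Of the cuticle collagens 12 were listed and 9 tested, and 2 rose in rnp-2(mg582), the limma change being 1.20 for col-45 (adjusted p 0.0392) and 1.22 for col-60 (adjusted p 0.0458). With experiment as a block 2 collagens passed as higher and 3 as lower in rnp-2(mg582), beside 20.4% of all genes in the same fit. In rnp-3(ok1424) the collagen bli-1, named after its values were seen, had 20 spliced reads and 0 in every other library, and passed in limma with an adjusted p of 0.0100. That library is the one through which bli-1 is listed, so its high value was a condition for the test. With 0 reads in the libraries of rnp-2(mg582) and wildtype, bli-1 has no spread of its own in that fit. Its adjusted p thus rests on the spread of other genes.

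In a search of the 839 genes that average 1 scaled CPM or more, the pattern over the 7 libraries most like that of cutl-15 was in Y50D4C.6, D2005.3 and Y22D7AL.7, with Pearson correlations of 0.96, 0.95 and 0.95. For cutl-7 it was F41C3.8, dnj-24 and mod-5 at 0.98, 0.98 and 0.96, and for cutl-14 Y87G2A.17, F58A4.1 and asna-2 at 0.95, 0.91 and 0.89. For cutl-26 the nearest was the collagen col-45 at 0.95, for noah-2 it was Y45F10A.3 at 0.99, and for cut-1 it was C53A5.13 at 0.85. These are descriptions over 7 libraries that share their scaling, chosen as the highest among many genes.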

How the data were processed

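Small RNA of Caenorhabditis elegans embryos was measured in 7 libraries, grouped by the genotype in the sample titles. The deposited table gives CPM per intron end and library, in columns IEJ and EEJ, read here as unspliced and spliced junction reads. Per the submitters' processing notes STAR and SAMtools were used, without versions. Not given in the sources used here are the genome build, strand use and how reads with several alignments were treated. Of the lines, 98.1% match a WBcel235 intron boundary by position and strand, and coordinates are read as that build, 1-based. Every value was a whole multiple of 1 step per library within 1e-06 reads (100% in each library), which gave whole reads and library totals. The test on those reads, edgeR 4.0.16, was an alternative because the deposited unit is CPM, as was DESeq2 1.42.0.

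Lines were joined into 7678 introns. Introns of a gene with 20 spliced reads or more each were taken as 1 junction where their reads nearly matched library by library. The differences per library summed to at most 5% of the larger total. This left 7282 junctions. Spliced reads were summed per gene. The low-count filter was filterByExpr of edgeR, with a minimum count of 10 and a minimum total of 15, leaving 3551 genes, all 7 members among them, and 6877 junctions, 7 of the 9 member junctions among them. The main test was limma 3.58.1 in R 4.3.3 on log2(TMM-scaled CPM + 0.5), 1 coefficient per genotype over all libraries or mutant against wildtype, with Benjamini-Hochberg adjustment over all genes or junctions. It understates changes of low genes. Fits were checked on simulated data. A floor is 3 reads, and intervals are exact at 95%.

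Experiment numbers in the titles are shared by genotypes. Deviations of same-numbered libraries correlated at 0.38 over 3551 genes, so experiment was taken as a pairing and fitted as a block in an alternative. The blocked fit has less replication than the main fit. Its spread per gene comes only from rnp-2(mg582) and wildtype, the genotypes with libraries in both experiments, and holds none of the single-library genotypes. Members and lists were chosen with earlier results of these data known. The named genes are the 7 members, listed relatives that passed in rnp-2(mg582) and, per member with at least 20 reads, the 3 genes of highest correlation; egg-6 was named as the only listed gene of its list. Contrasts between mutants were added after the data had been seen.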

Additional observations from a re-analysis of the deposited data

Results flagged for a closer look

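In cutl-14, the rnp-3(ok1424) library stood apart from the other mutant libraries, at 0.815 scaled CPM against 0.0301 to 0.0879 in those. Its gap to the nearest of them was 0.886 of the range over the 5 mutant libraries, above the 0.71 that marks an outlying value among 5. Chance marks about 1 in 20 unselected groups, or 5%, but that rate does not apply here, because cutl-14 is in the table only through the high value of this library at its 3 listed introns. With 1 library, the genotype and the library cannot be told apart.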

How the results depend on the processing

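The number of members called in rnp-2(mg582) over wildtype, 2, was 0 with library size alone, 1 with DESeq2, which gave no adjusted p for cutl-7, and 0 to 1 without 1 library. In rnp-2(tm4058) 1 member became 0 with library size alone. In mog-2(ok1221) 1 became 0 with library size alone or no filter and 2 with experiment as a replicate block. In rnp-3(ok1424) 0 became 1 with a pseudocount of 1 and 2 with the replicate block. Over all mutants 0 became 1 with DESeq2, 0 to 1 without 1 library and 2 for the 3 rnp-2 libraries alone. Of junctions, 2 called became 0 with library size alone, 1 with DESeq2 or no filter and 0 to 1 without 1 library. For the ratio, 0 became 2 with the replicate block, 2 with TMM-scaled CPM, an alternative chosen after seeing the data, and 0 to 1 without 1 library. The block changed no other count by over 1.5 times.

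With library size alone the log2 change turned over in rnp-2(mg582) for cut-1 (-0.045) and noah-2 (-0.033), in rnp-2(tm4058) for cut-1 (-0.33), cutl-7 (-0.026), cutl-15 (-0.068), cutl-26 (-0.042) and noah-2 (-0.86), in mog-2(ok1221) for cutl-14 (0.12) and noah-2 (0.059), and over all mutants for noah-2 (-0.034). It also turned over for cut-1 in rnp-2(mg582) without wildtype 2, the range without 1 library being -0.027 to 0.10. Over all mutants it turned over for cutl-14 without rnp-3(ok1424) (range without 1 library -0.11 to 0.23) and in the rnp-2 libraries alone (-0.10), and for noah-2 without wildtype 1 (range -0.085 to 0.31) and with mog-2(ok1221) and rnp-3(ok1424) alone (-0.18). The cause was not tested. Of 321 values of single members under alternatives, 288 kept direction and side of the threshold, 10 lost and 8 gained a call, and 15 reversed. Members have 16 to 207 spliced reads, so counting error limits every value.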
